A study of Anas platyrhynchos with 6 samples.

Results

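The 750 newly assembled duck loci described here were those for which the deposited exon list gave 5 or more transcripts. They were taken out of 6990 newly assembled loci and 23440 genes in the expression table. The choice used the number of transcript identifiers per locus and no expression value. Each locus lay on 1 strand of 1 scaffold, and the 750 loci were spread over 505 scaffolds, 374 on the plus strand and 376 on the minus strand. Positions below are those of the deposited list, counted from 1, and its genome build is not given in the sources used here. Liver RNA came from Shanma laying ducks (Anas platyrhynchos, variety domestica) that were 150 days old when chosen and breathed air with 75 ± 5 ppm ammonia (high ammonia, 3 libraries) or 5 ± 5 ppm ammonia (low ammonia, 3 libraries) from day 200 to day 230. Both groups ate the same diet. Each was kept in a room of its own, so effects of room and of ammonia cannot be told apart. Nothing in the labels ties the libraries to separate birds, so p-values measure the spread between these libraries, which may be technical.

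Most vertebrate genes give rise to several transcripts from the same stretch of genome. The spliceosome can join different donor and acceptor sites, leave an exon out or keep an intron, and transcription can start or end at different places. An assembler rebuilds such transcripts from spliced reads, and loci outside the annotation can be coding genes the annotation missed, long non-coding RNAs, or fragments of either. Abundance is given as FPKM, the count per kilobase of exon scaled to the total count of the library. Total counts ranged from 13415827 to 20491048 in high ammonia and from 16516390 to 23584934 in low ammonia. The length behind the FPKM of a locus was the mean length of its transcripts. In the 750 loci the joined length of all exons was 1.98 times that mean at the median, with a range from 1.01 to 7.30, so the FPKM of a locus depended on how its transcripts were drawn. Identifiers of the table matched no entry of the gene table used here, so no locus is named by symbol and liver marker genes were not checked.

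The loci with 5 or more transcripts held 5525 transcripts in all. Most had few of them: 227 loci had exactly 5 and 500 had 5 to 7, while 250 had 8 or more, up to 25. Their span on the scaffold had a median of 18682 bases (quartiles 8555 and 53950), against 6596 bases in the 2446 loci with 2 to 4 transcripts and 2784 bases in the 3794 loci with 1 transcript. The longest transcript by exon number had 5 exons at the median and 35 at most, against 3 and 29 in loci with 2 to 4 transcripts and 2 and 20 in loci with 1 transcript. Distinct exons per locus numbered 14 at the median, against 5 and 2 in these classes. A locus with more transcripts has more chances to show a further exon, so these numbers go with the choice and were not tested. At the border of the choice, loci with 5 transcripts had a median span of 14080 bases and 11 distinct exons, and the 374 loci with 4 transcripts had 11186 bases and 8 distinct exons.

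Exons of these loci were short. The 12402 distinct exons had a median of 164 bases (quartiles 84 and 812), against 233 bases in loci with 2 to 4 transcripts and 355 bases in loci with 1 transcript. Exons with a neighbour on both sides had a median of 136 bases, against 127 and 120 bases. They made up 5036 of the 12402 distinct exons, against 4145 of 14110 and 1542 of 8753. Shifted copies of an exon also counted as distinct. The part of either in the lower median of all exons was not tested. Of these 5036 internal exons 34.2% had a length divisible by 3, against 35.4% and 36.7%. At the other end, 22.1% of exons had 1000 bases or more, and the longest had 28352. Introns had a median of 1626 bases, against 1029 and 476 bases, and 1.92% of them were under 50 bases, against 4.78% and 12.3%. In 175 of the 750 loci (23.3%) the span overlapped that of another newly assembled locus, 149 of them on the opposite strand. Overlap was judged by span, and whether exons overlapped was not analysed. Since the library kit leaves strand unmarked, reads from any exon stretch shared with a partner on the opposite strand cannot be told apart. Overlap with annotated genes was not analysed here.

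The transcripts of a locus differed at their ends and at their splice sites. First exons lay in more than 1 place, with no overlap between places, in 612 of 750 loci (81.6%), and last exons did so in 511 (68.1%). These exons were compared as listed, so first exons of 1 base that stood a few bases apart counted as separate places. The 612 loci therefore include some that differ by such small shifts, such as Novel04501 below. An acceptor joined to several donors was found in 608 loci and a donor joined to several acceptors in 621. An internal exon that another transcript left out was found in 337 loci (44.9%), and an intron lying inside an exon of another transcript in 380 loci (50.7%). In loci with 2 to 4 transcripts, which offer fewer pairs to compare, these last shares were 10.4% and 27.1%. A transcript with a single exon was listed in 237 of the 750 loci, and 9 loci showed none of the listed differences.

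Some of the listed transcripts differed only by an intron that kept its length and moved along the scaffold by a few bases. Over the 750 loci there were 2060 pairs of introns whose ends had both moved by 1 to 20 bases, and in 1769 of them (85.9%) both ends had moved by the same number in the same direction. Such pairs occurred in 388 loci (51.7%). Splice forms were then counted by their chain of introns, with these introns taken as the same. All single-exon transcripts of a locus counted as 1 form, wherever they lay. The 5525 transcripts came to 4897 splice forms, and not all of this drop comes from shifted introns. Before any shift was merged, 742 of the 750 loci had 5 or more distinct intron chains. Of the 750 loci 634 (84.5%) still had 5 or more forms, 106 had 2 to 4 and 10 had 1. With shifts of up to 5 bases merged, 670 kept 5 or more forms. A form that was part of a longer one counted as separate. With shifts of up to 20 bases merged and such forms left out, 495 kept 5 or more. These ways of counting were chosen after the data were seen. No genome of the scaffolds was used, so the bases at these splice sites were not read. The 116 loci left with fewer than 5 forms spanned 7823 bases at the median, against 22164 bases in the other 634. More of the 116 had a count in all 6 libraries, 55.2% against 43.8%. The shares with 0 counts in every library were close, at 23.3% against 25.2%.

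**Figure D1:**
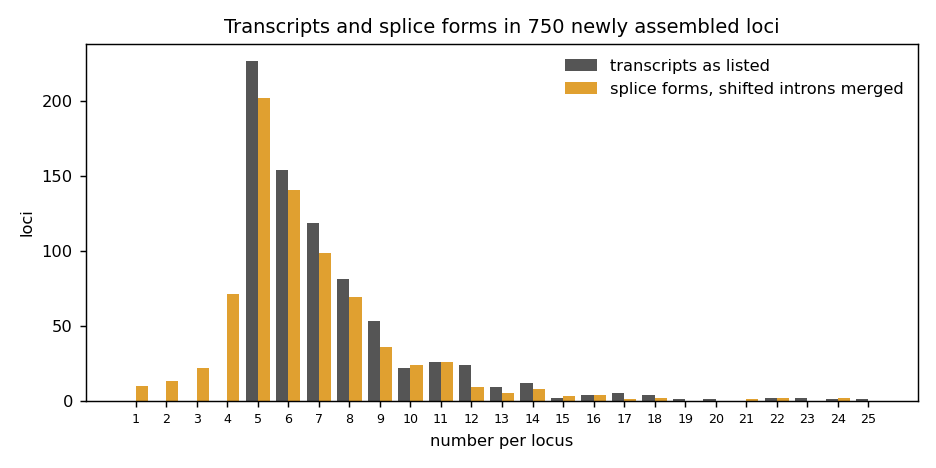
Number of loci (vertical axis) with a given number per locus (horizontal axis) of transcripts as listed (grey) and of splice forms once introns of equal length shifted by up to 20 bases are merged (yellow), over 750 loci. All single-exon transcripts of a locus count as 1 form. No locus lies under 5 in grey, and 116 do in yellow, 10 of them at 1 form.

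Novel04501, on the plus strand of KB743627.1 between bases 98804 and 100834, showed the pattern most plainly. Each of its 9 transcripts had a first exon of 1 base and an intron of 1688 bases, and the first exon stood at positions from 98804 to 98824, 20 bases apart. Merged, the 9 transcripts were 1 form. Novel05957, on the plus strand of KB744852.1 between bases 91 and 4260, had 20 transcripts of 2 exons. Of these 17 had an intron of 345 bases and 16 a first exon of 1 base, and the 20 transcripts came to 4 forms. Exons of 3 bases or fewer were listed in 170 of the 750 loci (22.7%). The share was 6.50% of loci with 2 to 4 transcripts and 1.34% of loci with 1 transcript. A locus with more exons has more chances to hold such an exon. Counted per distinct exon, 179 of 12402 had 1 base, against 100 of 14110 and 27 of 8753 in these classes. Exons of 10 bases or fewer made up 3.18%, against 1.67% and 0.857%.

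Novel03808, on the minus strand of KB743342.1 at 847626 to 869685, had longer chains: its transcripts had 10 to 35 exons over 22060 bases, with 53 distinct exons and a median intron of 349 bases. It too held 8 pairs of introns of equal length that were shifted, which brought its 43 introns to 37, and 1 transcript with an exon of 1 base. Its 7 transcripts remained 7 forms, but some of these forms were parts of a longer one and counted as separate. Novel01967, on the minus strand of KB742815.1 from 1010227 to 1034521, likewise had 13 to 19 exons per transcript over 24295 bases, with 4 forms among 5 transcripts.

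**Figure D2:**
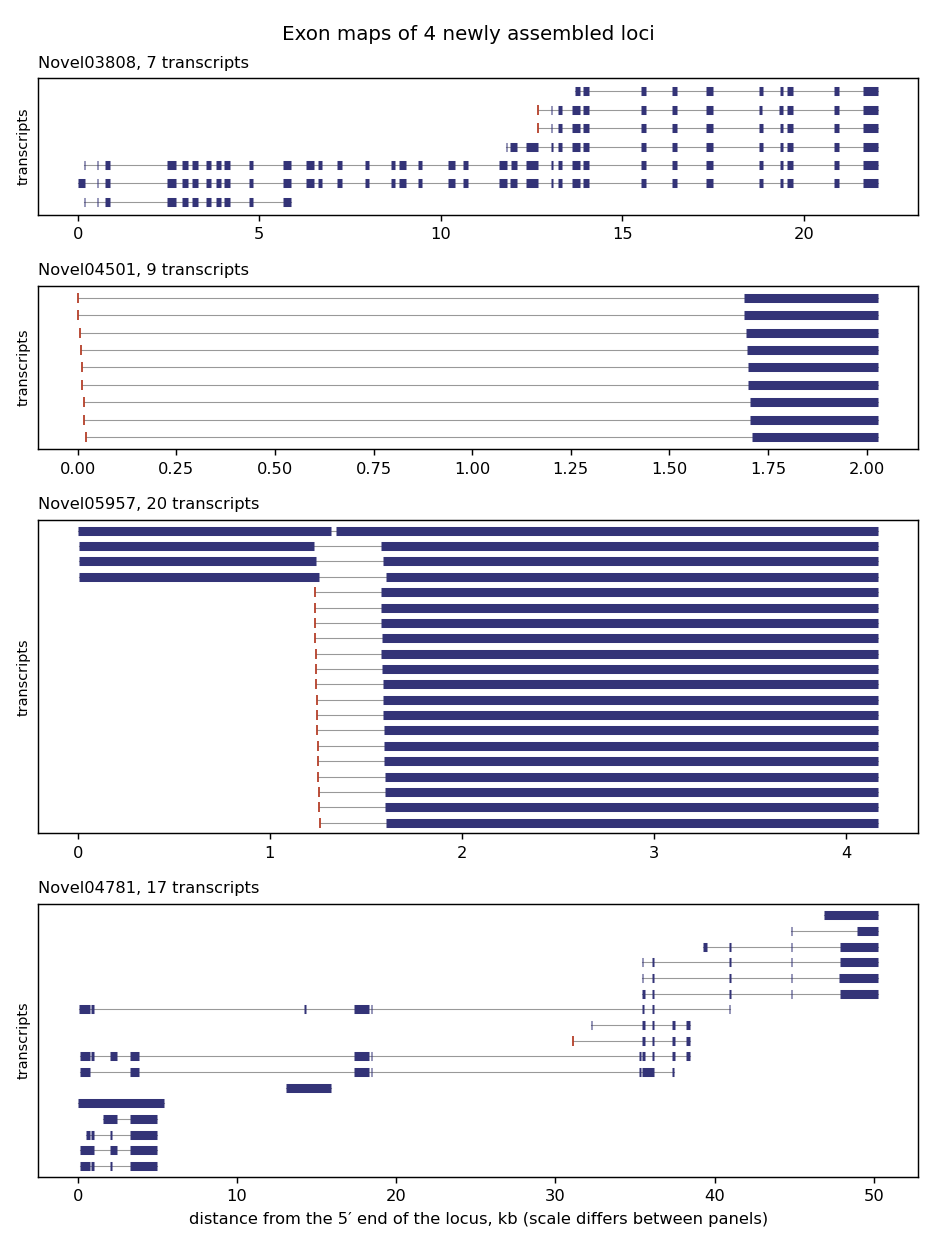
Exon maps of 4 loci, 1 line per transcript, with the distance from the 5′ end of the locus in kb on the horizontal axis. Dark blocks are exons to scale, grey lines introns, and red ticks exons of 10 bases or fewer, which are not to scale. The 9 transcripts of Novel04501 and most of the 20 of Novel05957 are the same picture moved by a few bases, while Novel03808 is a chain of up to 35 exons and the 17 transcripts of Novel04781 lie mostly toward either end of its locus.

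The locus with the most transcripts was Novel01793, with 25, of which 24 were separate forms, on the plus strand of KB742781.1 from 1429887 to 1478244. Novel03546 on KB743255.1 had 24 transcripts and 24 forms of up to 17 exons within 22926 bases, and Novel05629 on KB744430.1 had 23 transcripts, 21 forms and 74 distinct exons, the most of any of the 750 loci. Novel04779 on KB743740.1 had 23 transcripts and 22 forms, and Novel01020 on KB742582.1 had 22 and 22. By contrast, 22 transcripts of Novel01197 on KB742621.1 and 19 of Novel02506 on KB742953.1 came to 5 forms each. The longest of the 750 loci was Novel05880, with 14 transcripts over 498645 bases of the minus strand of KB744722.1 (281218 to 779862) and an intron of 155483 bases. Novel04140, Novel01804, Novel05039 and Novel03443 spanned 469050, 451294, 396954 and 393076 bases. Novel05039 had 1 count in all 6 libraries together and Novel04140 had 9, so these 2 wide models held few of the counted reads.

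Many loci with several listed transcripts had no counted read in these livers. Of the 750 loci, 187 (24.9%) had 0 counts in all 6 libraries, 221 had a count in 1 to 5 libraries and 342 (45.6%) in all 6. Counts of 0 in every library were seen in 32.6% of loci with 2 to 4 transcripts and 33.2% of loci with 1 transcript, and within the 750 in 15.2% of those with 8 or more transcripts and 29.8% of those with 5 to 7. The number detected per library was from 422 to 436 in high ammonia and from 413 to 458 in low ammonia. For a locus of the median length, 2499 bases, the limit that a count of 0 allows (3 counts, counting error only) was 0.0895 FPKM in high ammonia library 2, the shallowest, and 0.0509 FPKM in low ammonia library 1, the deepest. Novel05957, with its 20 transcripts, was at 0 in all 6 libraries. Loci at 0 had a median of 6 transcripts and 5 exons in the longest chain, and loci counted in all 6 libraries a median of 7 and 5. Which libraries the assembly used is not given in the sources used here, so why a transcript was listed without a count was not tested.

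**Figure D3:**
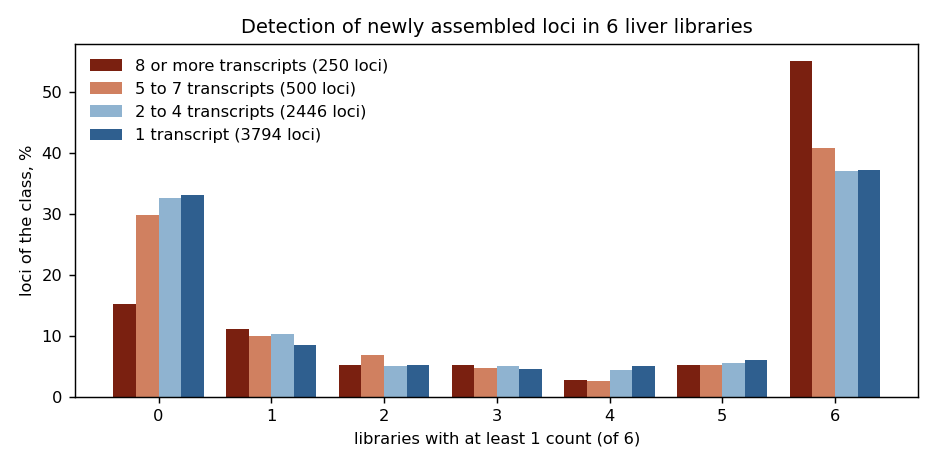
Share of loci (vertical axis, %) with at least 1 count in 0 to 6 of the libraries (horizontal axis), for loci with 8 or more, 5 to 7, 2 to 4 and 1 transcript. The class with 8 or more transcripts has the lowest bar at 0 libraries (15.2%) and the highest at 6 (55.2%).

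Typical abundance was low. The median FPKM of the 750 loci was between 0.0249 and 0.0443 in the 6 libraries, against at most 0.0192 for loci with 2 to 4 transcripts, at most 0.0254 for loci with 1 transcript and from 2.95 to 3.88 for annotated genes. For the 250 loci with 8 or more transcripts it was from 0.0827 to 0.124. With the joined exon length, the median FPKM of the 750 loci averaged 0.0163 over the 6 libraries, in place of 0.0347. That lies within the range of 0 to 0.0254 of loci with 1 transcript, where both lengths are the same. For loci with 2 to 4 transcripts this was not computed. The 4-transcript loci had a median of mean FPKM of 0.0116 and the 5-transcript loci 0.0213. Over all 6 libraries 368 of the 750 loci (49.1%) had fewer than 10 counts, 247 had 100 or more and 66 had 1000 or more. Assemblers rebuild transcripts from reads, so the number of transcripts and the abundance of a locus may share their source, and the classes were not tested against each other. Mean FPKM was 10 or more in 34 loci and 100 or more in 3.

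Of the 1296671 counts that the 750 loci took, 74.5% lay in Novel03808 and 82.6% in the 10 loci with the most counts. Novel03808 stood at 3428, 3486 and 3694 FPKM in high ammonia libraries 1, 2 and 3 and at 3257, 1709 and 2056 FPKM in low ammonia libraries 1, 2 and 3. The groups did not overlap, but low ammonia library 1 lay near the high ammonia libraries. The mean was 3536 ± 139 FPKM in high ammonia and 2341 ± 812 FPKM in low ammonia (SD, n = 3 each), and the log2 difference of 0.65 (SE 0.24) did not pass the test (adjusted p = 0.232, limma). Without 1 library it was between 0.45 (adjusted p = 0.416, limma), with low ammonia library 2 left out, and 0.91 (adjusted p = 0.0667, limma), with low ammonia library 1 left out. Next came Novel04501, the locus of 9 transcripts and 1 form, with 485, 454 and 395 FPKM in high ammonia and 308, 495 and 433 FPKM in low ammonia. Novel06765, at 2 to 759 of KB754687.1, had 117 ± 50.9 FPKM in high ammonia and 200 ± 68.1 FPKM in low ammonia. The next were Novel00259, Novel06775, Novel03497, Novel01693 and Novel01967, whose mean over 6 libraries was from 39.8 to 64.2 FPKM. Among these 7 loci the 2 groups overlapped, and their adjusted p in limma was from 0.311 to 0.822. Novel03497 was set by a single library: it had 194 FPKM in high ammonia library 2, against 12.3 and 40.5 FPKM in the other high ammonia libraries and 23.0 to 47.9 FPKM in low ammonia. Its log2 difference was 0.45 with that library and -0.57 without it.

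The share of all counts that fell in the 750 loci was 1.29%, 1.35% and 1.33% in high ammonia libraries 1, 2 and 3 and 1.29%, 0.797% and 0.927% in low ammonia libraries 1, 2 and 3. The means were 1.33% ± 0.0302 in high ammonia and 1.00% ± 0.254 in low ammonia (SD, n = 3 each), with p = 0.1 in a 2-sided exact permutation test, the lowest that 3 libraries against 3 can give. Without low ammonia library 1 the difference was 0.464 percentage points, in place of 0.322. Without Novel03808 the order turned, at 0.279% ± 0.0395 in high ammonia and 0.311% ± 0.0177 in low ammonia (p = 0.3 in the same exact test). The loci with 2 to 4 transcripts took 0.901% ± 0.114 of counts in high ammonia and 1.26% ± 0.183 in low ammonia, and those with 1 transcript 1.12% ± 0.0559 and 1.40% ± 0.147. In bulk liver, fewer cells of a type and less RNA per cell cannot be told apart.

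The comparison of ammonia levels asked which of these loci changed in the liver. A gene entered the test when it reached 1 FPKM in at least 3 libraries, which 165 of the 750 loci did (22.0%), 112 of them in all 6 libraries, and 585 did not. At a Benjamini-Hochberg adjusted p below 0.05 over all 11717 genes tested (limma on log2(FPKM + 1), n = 3 and 3), 2 of the 165 loci rose in high ammonia and 3 fell. That is 3.03% of the loci, against 0.785% of all genes tested, with 0.41% rising and 0.376% falling. These 5 were among 13 newly assembled loci called, the others being 3 of the 395 tested with 2 to 4 transcripts and 5 of the 617 tested with 1 transcript. The difference from the background rests on these few loci and was not tested. An unadjusted p below 0.05 was found for 28 of the 165 (17%), against 17.2% of all genes. The groups did not overlap in 34 of the 165 (20.6%), 14 higher and 20 lower in high ammonia, against 24.8% of all genes (6.11% higher and 18.7% lower).

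The middle of the distribution lay close to that of all genes. The median log2 difference of the 165 loci was -0.15 (quartiles -0.38 and 0.11), against -0.13 over all genes (quartiles -0.34 and 0.08), and 110 of the 165 (66.7%) lay below 0, against 66.3%. Median-ratio scaling of the libraries moved the median of all genes by 0.13, after which 56.1% of the loci and 50.7% of all genes lay below 0. With that scaling 3 of the loci rose and 2 fell, since Novel01026 passed and Novel04781 did not, and over all genes 69.2% of calls were rises in place of 52.2%. A log2 difference of at least 1 in size was found in 19 loci (11.5%), 6 higher and 13 lower in high ammonia. The share was 6.84% in tested loci with 2 to 4 transcripts, 4.86% in those with 1 and 3.77% in all genes. Within the 165 it was 12.8% with 5 to 7 transcripts and 9.86% with 8 or more. Of the 19 loci, 4 entered the test only through their higher group (Novel01428, Novel02679, Novel03019 and Novel04780). Without such loci the share was 15 of 159 (9.43%), against 3.6% of all genes. The loci were less abundant than the genes they are set against, with a median of mean FPKM of 3.08 against 8.66, and the part of this in the wider spread was not tested.

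**Figure D4:**
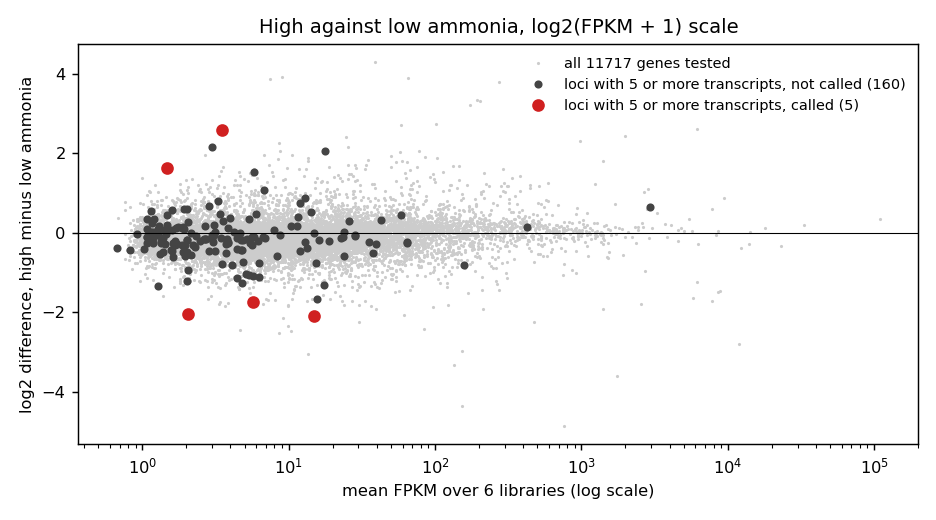
Log2 difference of high minus low ammonia on the log2(FPKM + 1) scale (vertical axis) against the mean FPKM over 6 libraries (horizontal axis, log scale). Grey dots are all 11717 genes tested, dark dots the 160 tested loci with 5 or more transcripts that were not called, and red dots the 5 that were, 2 above and 3 below 0.

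The number called depended on the libraries. It was 1, 2 and 1 without high ammonia library 1, 2 or 3 and 3, 2 and 4 without low ammonia library 1, 2 or 3. Part of this follows from the filter. Of the 165 loci 6 reached 1 FPKM in the 3 libraries of one group and in none of the other, and 3 of the 5 called loci were among these 6 (Novel01428, Novel02679 and Novel03019). Such a locus entered the test only because its groups differed, and it could not be tested once a library of its higher group was left out. Without the 6 loci 2 of 159 were called (1.26%), against 0.740% of 11626 genes chosen in the same way, and among loci with 6 or more transcripts 1 of 124 (0.806%). The share called in the 165 loci is therefore no result about them. This split was chosen after the data were seen.

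Among the loci that fell, Novel05228 changed most evenly. It has 5 transcripts over 15169 bases of scaffold KB744087.1 (50092 to 65260, minus strand), all with the same 3′ end at 50092. In 4 of them the last exon had 2177 bases, and upstream exons were 56 to 5958 bases long. It stood at 5.57, 4.03 and 5.54 FPKM in high ammonia libraries 1, 2 and 3 (610, 289 and 494 counts) and at 26.3, 23.9 and 24.4 FPKM in low ammonia libraries 1, 2 and 3 (3315, 2740 and 2153 counts). The libraries of each group lay close together and the groups were far apart, and the log2 difference was -2.11 with an SE of 0.16 (adjusted p = 0.00491, limma). It was the only one of the 5 that passed in all 12 other settings.

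Novel03019, with 5 transcripts over 3778 bases of KB743099.1 (48105 to 51882, minus strand), was nearly absent from high ammonia, at 0.271, 0.0887 and 0.143 FPKM (14, 3 and 6 counts), against 3.97, 2.72 and 5.09 FPKM in low ammonia (236, 147 and 212 counts). Its mean FPKM was 23.4-fold lower in high ammonia. Its difference on the log2(FPKM + 1) scale, which understates the change of low genes, was -2.05 with an SE of 0.22 (adjusted p = 0.0181, limma). Its 5 transcripts came to 3 forms once shifted introns were merged. It passed in 5 of the 8 other settings that tested it, with adjusted p in limma of 0.0787, 0.0544 and 0.0621 without high ammonia library 1, 2 or 3. No fit without a low ammonia library tested it, since it reached 1 FPKM in low ammonia only.

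Novel04781, with 17 transcripts and 15 forms of 1 to 11 exons over 50299 bases (KB743740.1, 1382401 to 1432699, minus strand), was the only called locus with 8 or more transcripts, of 71 tested. It came to 15 forms because its single-exon transcripts, which do not overlap, counted as 1. It had 3.18, 2.0 and 1.12 FPKM in high ammonia libraries 1, 2 and 3 (175, 72 and 50 counts) and 11.8, 7.86 and 8.03 FPKM in low ammonia libraries 1, 2 and 3 (750, 453 and 356 counts). The groups did not overlap, at -1.76 on the log2 scale (SE 0.28, adjusted p = 0.0435 in limma). It passed in 2 of 12 other settings, and without any 1 library its adjusted p was between 0.0712 and 0.108.

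Novel04781 has 2 neighbours of the same strand among the 750 loci, and both were lower in high ammonia. Novel04780, with 7 transcripts at 1300804 to 1374977, is separated from it by 7423 bases, and Novel04779, with 23 transcripts at 1161539 to 1300023, from Novel04780 by 780 bases. Novel04780 had 0.472, 0.199 and 0.160 FPKM in high ammonia and 3.21, 2.14 and 1.52 FPKM in low ammonia, and did not pass (-1.34 on the log2 scale, SE 0.24, adjusted p = 0.0633 in limma). Novel04779 had 0.474, 0.302 and 0.269 FPKM in high ammonia and 1.06, 1.44 and 0.719 FPKM in low ammonia, which is under the minimum for the test. Novel04780 entered the test only through its low ammonia libraries. In each of the 3 loci the groups did not overlap, lower in high ammonia, which held for 18.7% of all genes tested. Together the 3 loci cover 271 kb and hold 47 transcripts, and whether they are parts of a single gene was not tested. Over the 750 loci there were 20 pairs on the same strand with a gap of at most 10 kb, 3 of them with both loci tested. Besides Novel04780 and Novel04781 these were Novel02992 and Novel02993 on KB743089.1, with log2 differences of -0.31 each, and Novel05624 and Novel05629 on KB744430.1, with 0.09 and 0.13.

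The larger rise was that of Novel01428, on the plus strand of KB742685.1 from 2580573 to 2589533. Its 5 transcripts had 1 to 6 exons, and the transcript with a single exon covered the whole 8961 bases, introns of the others included. It had 6.93, 8.10 and 5.10 FPKM in high ammonia libraries 1, 2 and 3 (691, 529 and 414 counts) and 0.0436, 0.699 and 0.187 FPKM in low ammonia libraries 1, 2 and 3 (5, 73 and 15 counts). Every high ammonia library was above every low ammonia library, and the FPKM means of Novel01428 were 21.7-fold apart. Its difference on the log2(FPKM + 1) scale, which understates the change of low genes, was 2.57 (SE 0.25, adjusted p = 0.0126 in limma). It passed in 8 of the 9 other settings that tested it. No fit without a high ammonia library tested it, since it reached 1 FPKM in high ammonia only. Its span overlaps that of another newly assembled locus on the opposite strand.

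Novel02679, on the plus strand of KB742991.1 from 147796 to 154877, had 5 transcripts that all ended in the same exon of 1603 bases and began at different places. It had 3.23, 2.02 and 3.02 FPKM in high ammonia (122, 50 and 93 counts) and 0.368, 0.0505 and 0.197 FPKM in low ammonia (16, 2 and 6 counts), a 13.4-fold difference of the FPKM means. Its difference on the log2(FPKM + 1) scale, which understates the change of low genes, was 1.63 (SE 0.21, adjusted p = 0.0248 in limma). It passed in 4 of the 8 other settings that tested it, with adjusted p in limma of 0.0772 and 0.0745 without low ammonia library 2 or 3. No fit without a high ammonia library tested it, since it reached 1 FPKM in high ammonia only. A newly assembled locus of the same strand, Novel02680, overlaps its span. Whether their exons overlap was not analysed, so their counts cannot be told apart with certainty.

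Other loci had groups that did not overlap and missed the threshold. On the higher side, Novel01026 on KB742582.1 had 4.67, 6.30 and 5.11 FPKM in high ammonia, against 0.0454, 0.0499 and 1.66 FPKM in low ammonia (2.15 on the log2 scale, SE 0.37, adjusted p = 0.0553 in limma). Low ammonia library 3 held 77 counts and the other low ammonia libraries 3 each, and without it the adjusted p in limma was 0.0200. With each other library left out it was from 0.0871 to 0.155. Novel04865 on KB743811.1, a locus of up to 24 exons, had 34.1, 21.8 and 28.7 FPKM in high ammonia and 5.27, 2.70 and 13.3 FPKM in low ammonia, with an adjusted p in limma of 0.0920, 0.0399 without low ammonia library 3 and from 0.141 to 0.243 with each other library left out. Novel06193, Novel03993 and Novel03907 differed by 1.53, 0.80 and 1.08 on the log2 scale (adjusted p from 0.0648 to 0.112, limma). These 5 are the uncalled loci of smallest p on that side.

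On the lower side, next to Novel04780, the smallest p were those of Novel03365, Novel01793, Novel02044 and Novel05234, at -1.23, -1.15, -1.04 and -0.94 on the log2 scale (adjusted p from 0.0921 to 0.107, limma). Without high ammonia library 2, Novel03365 had an adjusted p in limma of 0.0495, and with each other library left out one from 0.151 to 0.252. Novel01793, the locus with 25 transcripts, stood at 4.01, 1.62 and 1.79 FPKM in high ammonia and at 6.98, 6.04 and 6.16 FPKM in low ammonia. Novel02044 on KB742834.1, with 15 transcripts and 15 forms, had 2.60, 4.38 and 2.20 FPKM in high ammonia and 5.72, 8.26 and 7.66 FPKM in low ammonia.

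**Figure D5:**
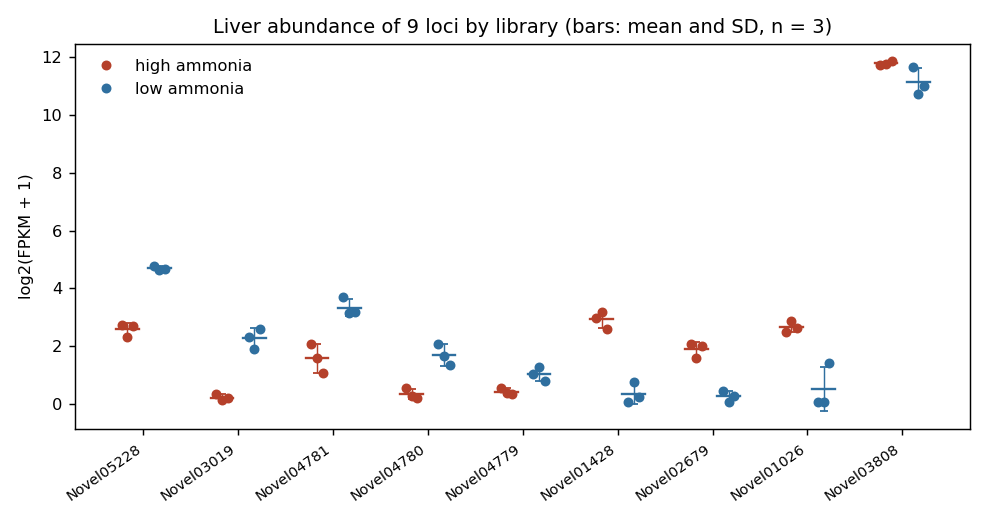
Log2(FPKM + 1) (vertical axis) of 9 loci in the 3 high ammonia libraries (red, left of each pair) and the 3 low ammonia libraries (blue, right). Points are libraries, and bars give the mean and SD. The 5 called loci are Novel05228, Novel03019, Novel04781, Novel01428 and Novel02679. The groups do not overlap in any of the 9, most of which were picked for a call or for such groups. Groups did not overlap in 20.6% of the 165 tested loci and in 24.8% of all genes tested.

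Among the other loci with the most transcripts or the longest span, spread within a group was often wider than the difference. Novel03546 (24 transcripts) had 1.99 to 4.68 FPKM in high ammonia and 3.35 to 11.1 FPKM in low ammonia (-1.08 on the log2 scale, adjusted p = 0.252 in limma). Novel05629 (23 transcripts) had 1.61 to 7.43 FPKM in high ammonia and 1.82 to 6.07 FPKM in low ammonia. Novel01197 (22 transcripts) was more even, at 2.35 to 2.72 FPKM in high ammonia and 2.64 to 3.15 FPKM in low ammonia, at -0.16 on the log2 scale (SE 0.15). Novel03443, which spans 393076 bases, had 0.105, 5.06 and 2.38 FPKM in high ammonia and 23.7, 5.91 and 0.357 FPKM in low ammonia, so that 1 low ammonia library held 2084 of its 2988 counts. Novel05880 had 6.38, 1.06 and 0.960 FPKM in high ammonia, against 1.54, 0.867 and 0.786 FPKM in low ammonia. Counts in all 3 libraries of one group and in none of the other were found in 5 of the 750 loci (0.667%), against 0.715% of all 6990 newly assembled loci, with 3 to 6 counts each: Novel02606 in high ammonia, and Novel00692, Novel01175, Novel02906 and Novel04249 in low ammonia. Novel02506 (19 transcripts) stayed under the minimum for the test, with 1.34, 3.01 and 0.869 FPKM in high ammonia and 0.679, 0.710 and 0.693 FPKM in low ammonia, where the groups did not overlap.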

How the data were processed

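RNA was extracted with Trizol from frozen liver and made into libraries with an unstranded TruSeq RNA kit, per the labels' protocols. The authors deposited FPKM per library and a list of exons of the newly assembled genes; the sources used here name no aligner, assembler, counter or build. Multiplied by the rounded mean transcript length, 100% of the loci's FPKM values above 0 came out within 0.01 of a whole number of steps, which gave totals and counts. Genes with at least 1 FPKM in 3 libraries were fitted with limma 3.58.1 (R 4.3.3) on log2(FPKM + 1), with a variance trend, 2-sided, Benjamini-Hochberg adjusted over all genes. That scale understates the change of low genes. The fit was also run on simulated data with the same spread for all genes and no changes placed in the lowest genes. That run therefore does not bear on the calls of low or variable loci. Shares of counts were compared by an exact permutation test. Intervals for 0 counts use 3 counts. Introns of equal length in a locus with starts up to 20 bases apart, taken stepwise, were merged. Transcripts of a locus with the same merged introns counted as 1 form, and so did all its single-exon transcripts. Other steps used matplotlib 3.10.9, scipy 1.17.1, pandas 2.3.3, numpy 2.4.6 and Python 3.11.15.

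Named were the called loci, the 8 with most transcripts, the 8 with highest mean FPKM, the 5 longest and the 5 uncalled per direction of smallest p with groups that did not overlap, 35 in all. Loci named beyond this, among them those paired by position, were chosen after their values were seen. The loci and rules were chosen with earlier results of these data known. The planned marker check was not run, since 0 identifiers matched the gene table. Alternatives are those listed at the end.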

Additional observations from a re-analysis of the deposited data

How the results depend on the processing

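The 5 called loci had groups that did not overlap. Leaving out a library or changing the pseudocount or filter therefore could not turn their direction. It was kept in each of the 49 values under alternatives that tested them. The unadjusted p in limma was at most 0.00125, but 18 of the 49 missed the adjusted threshold. Novel01428, Novel02679 and Novel03019 were not tested without a library of their higher group. The count of 5 was 2 with a pseudocount of 0.01, 3 with no filter, 3 at 5 FPKM or more in 3 libraries, 1 for loci with 6 or more or 8 or more transcripts, 2 without loci that reached 1 FPKM in one group only (a choice made after the data were seen), and from 1 to 4 without 1 library. Calls over all genes numbered 92, 24 with no filter, 6, 24 and 6 without high ammonia library 1, 2 or 3, and 56, 32 and 25 without low ammonia library 1, 2 or 3 (the cause was not tested). The difference in share of counts, 0.322 percentage points, was -0.0143 for loci with 8 or more transcripts, -0.0318 without Novel03808 and from 0.219 to 0.464 without 1 library. The median FPKM, 0.0347 over 6 libraries, was 0.0163 with the joined exon length, 0.0222 for 4 or more transcripts, 0.110 for 8 or more and from 0.0327 to 0.0366 without 1 library. Loci tested numbered 56 at 5 FPKM and 438 above 0 FPKM in 3 libraries. Counting merged forms not contained in a longer form, a choice made after the data were seen, left 495 of 750 loci with 5 or more. Among the 28 loci named and tested, those whose log2 difference turned without 1 library were the uncalled Novel03497 (from -0.57 without high ammonia library 2 to 1.37), Novel04501 (from -0.065 without low ammonia library 1 to 0.28) and Novel05629 (from -0.31 to 0.54; below 0 without high ammonia library 1 and, at -0.17, low ammonia library 2). No paired analysis was possible because just 1 number occurs in the titles of both groups. The 585 loci under the minimum of 1 FPKM were not tested.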
